A study of Mus musculus with 9 samples.

Results

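Laminins are the cross-shaped trimers that build the basement membrane, and integrins are the alpha-beta receptors through which cells hold on to it. The genes described here are the laminin chains and integrin subunits of the mouse, chosen by name (a symbol made of Lama, Lamb or Lamc with a digit, or of Itga or Itgb with a subunit name), plus the laminin-linked proteins nidogen (Nid1, Nid2), perlecan (Hspg2), agrin (Agrn) and dystroglycan (Dag1). The rule itself used no measured value, but it was set with earlier results of these data known. It gave 41 of the 55286 genes in the tables: 5 laminin alpha, 3 laminin beta, 3 laminin gamma, 17 integrin alpha and 8 integrin beta genes, and the 5 others. Of these, 37 had enough counts to be tested. The 4 that did not were Itga7, Itgae, Itgb7 and Itgad, and Itgad had no count in any library.

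RNA-seq was made from bulk lung RNA in 3 groups of 3 libraries. Fresh lung was wild-type and taken at E11.5, midway through mouse gestation, when the first lung buds branch. Control explants were lungs of that stage after 72 h of culture without inhibitor, and EPZ5676 explants were cultured for the same 72 h with EPZ5676 (pinometostat), a small-molecule inhibitor of the histone H3 lysine 79 methyltransferase DOT1L. The labels give no dose. They also do not tell whether replicates are separate embryos or cultures, so each p reflects only how far these libraries vary, and some of that may be technical. Fresh and cultured lung differ in age as well as in culture, which cannot be told apart here. The study's question, as far as its title states it, is what EPZ5676 does to branching of the embryonic lung.

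As background, each laminin joins an alpha, a beta and a gamma chain. The chain set changes as an organ grows: Lama1 marks early epithelial basement membrane, Lama5 takes over as the broad epithelial and vascular chain, Lama4 is typical of vessels and mesenchyme, and Lama3 and Lamb3 belong to the epithelial laminin that anchors hemidesmosomes. Integrins read these proteins in classes by their alpha chain (laminin, collagen, RGD or leukocyte ligands), with Itgb1 as the partner of most of them, and in the branching lung the basement membrane is thin at bud tips and thick along stalks.

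Libraries held 6509450 to 9861370 counts, of which 0.335% to 0.474% fell on the 41 genes. The Control 1 library stood apart in markers of neighbouring tissue: its summed liver marker level was 293 TPM (abundance corrected for the length of the transcript and for depth) against 15.7 to 62.9 TPM in the other 5 explant libraries, and its heart muscle sum was 203 TPM against 48.9 to 88.2 TPM, with cartilage markers at 155 TPM against 24.4 to 94.8 TPM. Smooth muscle markers summed to 210 to 417 TPM in fresh lung and 385 to 812 TPM in explants, and neural markers to 23.4 to 40.3 TPM and 33.3 to 129 TPM, highest in Control 3. Xist, expressed from the inactive X of females, was 72.5 to 284 TPM in fresh lung, at 281, 278 and 0.25 TPM in Control 1 to 3 and at 0.58, 210 and 0.77 TPM in EPZ5676 1 to 3, so the mix of sexes differed between groups. Defining lung epithelial genes were present throughout, Nkx2-1 at 30.1 to 38.7 TPM in fresh lung and 71.7 to 96.6 TPM in explants. Calls that change when a library is left out are given beside the value.

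Most of the laminin and integrin genes that moved in culture rose. In control explants against fresh lung, 18 of the 37 tested genes rose and 3 fell at an adjusted p under 0.05 in edgeR's quasi-likelihood test (Benjamini-Hochberg adjustment over 15158 genes), which is 56.8%. The background over all 15158 genes was 37.7% called, with 21.1% higher and 16.6% lower. The median log2 fold change was 0.33 over the 37 genes and 0.02 over all genes. In EPZ5676 explants against the same fresh libraries, 16 rose and 3 fell (51.4%), where 40% of all genes were called, 22.1% higher and 17.9% lower, and the median was 0.32 against 0.02. TPM ranges of explants and fresh lung did not overlap for 22 of the 37 genes in each comparison, against 44.4% and 52.2% of all genes. Between EPZ5676 and control explants no gene of the 37 and none of the 15158 passed in edgeR, so the background was 0%. By class, 2 of 5 laminin alpha chains rose and 1 fell in control explants, 3 of 3 beta chains rose, 4 of 14 tested integrin alpha chains rose and 2 fell, and 4 of 7 tested integrin beta chains rose.

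**Figure D1:**
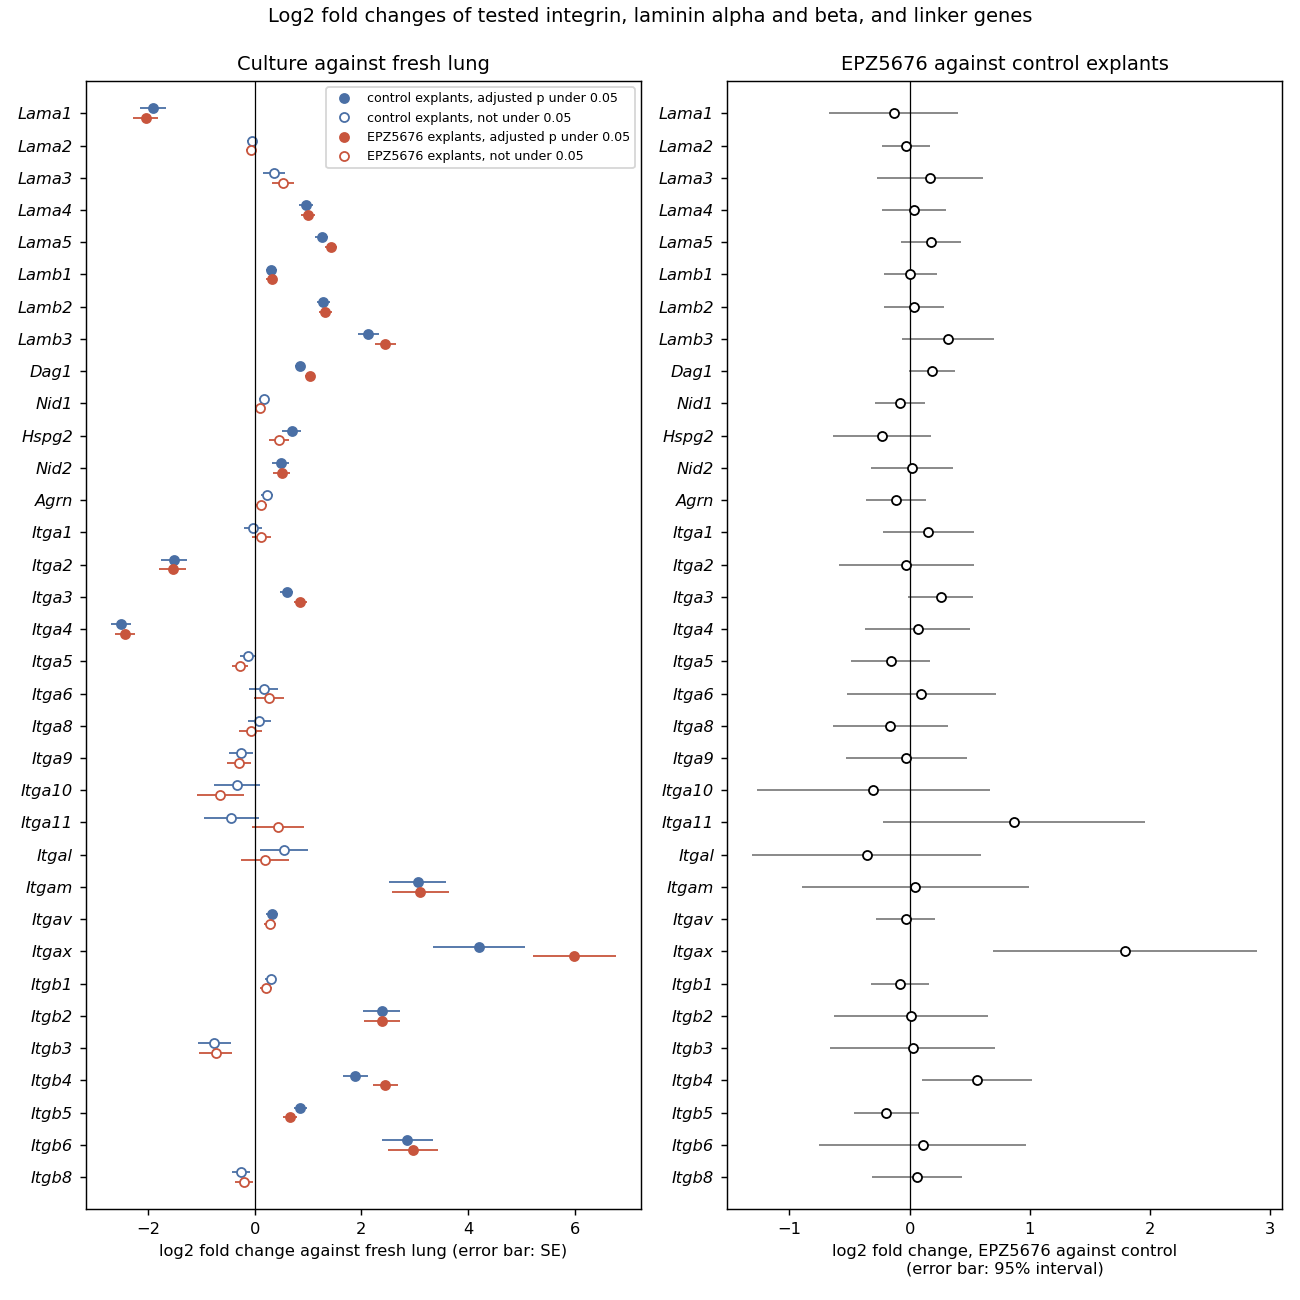
Log2 fold changes (x axis) of the tested integrin, laminin alpha, laminin beta and linker genes (y axis), left for control (blue) and EPZ5676 explants (red) against fresh lung with the SE as bar and filled points where the adjusted p was under 0.05, right for EPZ5676 against control explants with the 95% interval. On the left Itga4, Lama1 and Itga2 are the filled points below 0 and Itgax lies farthest above 0. On the right all points are drawn open whatever their p, and no gene passed in that comparison.

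Lama1 was the laminin chain that fell. It stood at 6.36, 10.1 and 10.1 TPM in Fresh 1 to 3, at 2.64, 3.93 and 1.38 TPM in Control 1 to 3 and at 2.69, 1.76 and 1.84 TPM in EPZ5676 1 to 3. All 6 explant libraries lay below all 3 fresh ones. By counts it fell 3.74-fold in control explants (log2 fold change −1.90 ± 0.24, SE, edgeR adjusted p = 2.0e-04) and 4.11-fold in EPZ5676 explants (−2.04 ± 0.24, adjusted p = 1.2e-04). The gene lies on chromosome 17 (67697259 to 67822647, plus strand, GRCm38). Markers of the mesothelium, which with early epithelium is a known site of this chain, summed to 137 to 154 TPM in fresh lung, 62.6 to 72.5 TPM in control and 78.7 to 139 TPM in EPZ5676 explants, with 2 of 6 called lower and none higher in control explants and 2 lower and 1 higher in EPZ5676 explants. The epithelial sum instead rose: 303 to 315 TPM in fresh lung, 592 to 943 in control and 884 to 1221 in EPZ5676 explants. All 10 epithelial markers were called higher in both comparisons with fresh lung. The part of either cell type in the fall of Lama1 was not tested. In bulk RNA fewer cells of a type and less RNA per cell cannot be told apart.

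Lama5 had the highest TPM of the alpha chains in each library and rose in culture. Its levels were 36.8, 38.5 and 39.7 TPM in fresh lung, 86.3, 84.6 and 83.8 TPM in control explants and 114, 92.2 and 97.8 TPM in EPZ5676 explants. The 3 groups did not overlap. Against fresh lung it rose 2.39-fold in control explants (log2 fold change 1.25 ± 0.11, SE, edgeR adjusted p = 3.5e-05) and 2.70-fold in EPZ5676 explants (1.43 ± 0.12, adjusted p = 1.2e-05). Lama4 rose alongside Lama5, and by counts, not scaled by length, was the higher in Fresh 1 (816 against 663) and Fresh 2 (628 against 625). It read 36.1, 33.6 and 24.8 TPM in fresh lung, 69.1, 57.5 and 51.8 TPM in control explants and 60.2, 63.6 and 53.0 TPM in EPZ5676 explants, a rise of 1.95-fold in control (adjusted p = 2.4e-04) and 2.00-fold in EPZ5676 explants (adjusted p = 1.6e-04). This rise went with a lower endothelial marker sum, 251 to 277 TPM in fresh lung, 24.6 to 105 TPM in control and 39.1 to 75.1 TPM in EPZ5676 explants, with 10 of 10 markers called lower in both, and a mesenchymal marker sum of 1161 to 1443 TPM in fresh lung and 1957 to 2542 TPM over the explants. The 10 mesenchymal markers were split, with 4 called higher and 3 lower in control explants and 5 higher and 3 lower in EPZ5676 explants. Col1a1, Col1a2 and Col3a1 were among the higher ones and Pdgfrb, Tbx5 and Foxf1 were the lower ones. What either had to do with Lama4 was not tested.

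The other alpha chains did not pass. Lama2, best known from muscle and mesenchymal basement membrane, averaged 19.0 ± 1.39 TPM (SD, n = 3) in fresh lung, 17.5 ± 1.25 in control and 15.8 ± 0.54 in EPZ5676 explants, and its log2 fold changes were −0.04 (95% interval −0.24 to 0.16) and −0.07 (−0.28 to 0.13). Lama3 averaged 6.98 ± 1.04, 8.94 ± 1.59 and 10.01 ± 2.13 TPM in the same order. Its log2 fold changes were 0.36 ± 0.20 in control explants (edgeR adjusted p = 0.185) and 0.53 ± 0.20 in EPZ5676 explants (adjusted p = 0.057). It passed without Control 1 (adjusted p = 0.032) in the first comparison, and without EPZ5676 3 (0.0435), without a filter on low counts (0.0419) or in the fit to the 6 libraries compared (0.0175) in the other.

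Put together, the alpha chains changed in their proportions as well as their sum. Summed alpha chain TPM was 105 ± 3.09 (SD, n = 3) in fresh lung, 173 ± 10.2 in control and 188 ± 14.6 in EPZ5676 explants. Lama1 made up 6.14%, 9.32% and 9.87% of the sum in the fresh libraries, 0.85% to 2.27% in control explants and 0.96% to 1.31% in EPZ5676 explants. Lama5 made up 35.5% to 38.8%, 47.0% to 51.4% and 50.3% to 55.8% in the same order, while Lama2 went from 16.6% to 20.1% in fresh lung to 9.83% to 10.3% and 7.46% to 8.98%. For these 3 chains the shares in fresh lung did not overlap those in explants. Lama2 thus had a smaller share at a level whose change did not pass. Shares of Lama3 and Lama4 overlapped in all 3 groups. Shares taken from counts without scaling by length gave Lama5 28.7%, 43.4% and 45.9% and Lama1 14.8%, 2.51% and 2.11%, in the same order of groups.

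**Figure D2:**
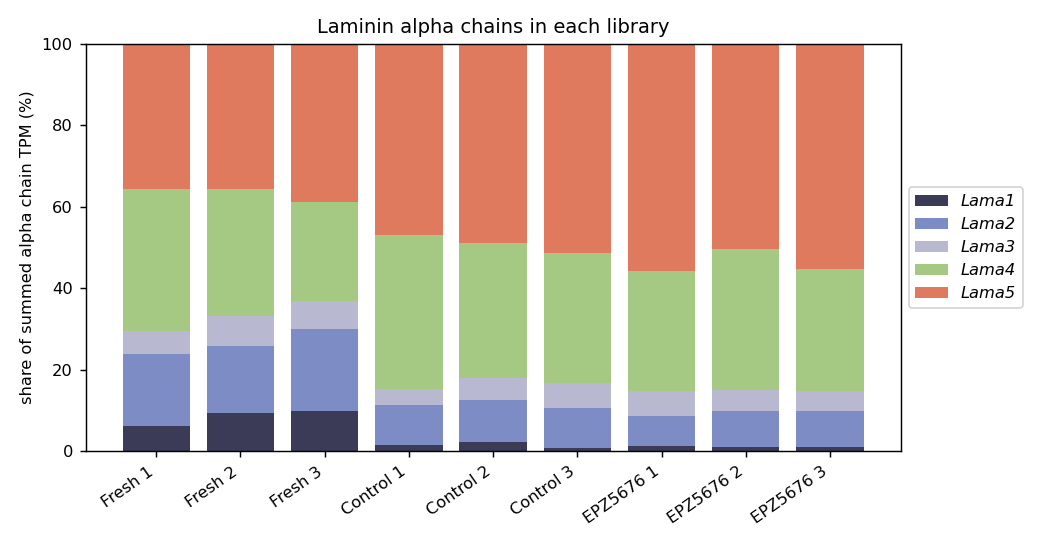
Share of each laminin alpha chain in the summed alpha chain TPM (y axis, percent) for each of the 9 libraries (x axis), stacked to 100%. Lama5 takes 35.5% to 38.8% in fresh lung and 47.0% to 55.8% in explants, and Lama1 shrinks from 6.14% to 9.87% to 0.85% to 2.27%.

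All 3 beta chains rose, by very different amounts. Lamb1, the usual partner of Lama1 and Lama5, read 81.5, 80.2 and 85.8 TPM in fresh lung, 95.2, 103 and 95.3 TPM in control and 98.96, 103 and 104 TPM in EPZ5676 explants. It was 1.24-fold higher in control explants (log2 fold change 0.31 ± 0.10, edgeR adjusted p = 0.032) and 1.25-fold higher in EPZ5676 explants (adjusted p = 0.0276). These small rises missed the threshold when any of Fresh 1, 2 or 3 or Control 2 or 3 was left out (adjusted p from 0.0553 to 0.121), or any of Fresh 1, 2 or 3 or EPZ5676 2 or 3 in the other comparison (highest adjusted p 0.113). Lamb3, whose protein occurs with Lama3, rose more. It read 4.27, 2.99 and 3.07 TPM in fresh lung, 12.2, 14.2 and 9.94 TPM in control and 17.9, 10.6 and 16.5 TPM in EPZ5676 explants, 4.38-fold and 5.46-fold above fresh lung by counts (adjusted p = 3.6e-05 and 1.2e-05).

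Lamb2, a chain of vascular and smooth muscle basement membrane, was 44.3, 29.7 and 25.8 TPM in fresh lung, 66.7, 50.5 and 31.3 TPM in control and 65.5, 60.0 and 59.6 TPM in EPZ5676 explants. Control 3 lay within the fresh range on this scale. In CPM with TMM scaling (a share of the library's counts, corrected for library composition), which are not scaled by length, the fresh libraries were at 57.4, 46.1 and 45.4, control explants at 138, 113 and 112 and EPZ5676 explants at 126, 129 and 118, with no overlap. The count test gave a 2.44-fold rise in control explants (log2 fold change 1.29 ± 0.12, edgeR adjusted p = 3.6e-05), while the ratio of mean TPM was 0.58 on the log2 scale. With limma on log2(TPM + 1) the difference was 0.53 and did not pass (adjusted p = 0.152), so this rise depends on the scale. In EPZ5676 explants the rise was 2.5-fold (adjusted p = 2.3e-05).

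Of the gamma chains, Lamc1, which most laminins share, was the highest laminin gene in each library. It read 116, 136 and 134 TPM in fresh lung, 160, 157 and 154 TPM in control and 168, 152 and 151 TPM in EPZ5676 explants, without overlap between fresh lung and explants. It rose 1.28-fold in control (edgeR adjusted p = 0.0136) and 1.30-fold in EPZ5676 explants (adjusted p = 0.00989), and missed the threshold in control explants without Fresh 1 (0.0605) or Control 2 (0.0512). The gene lies on chromosome 1 (153218922 to 153332786, minus strand, GRCm38).

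Lamc3 was scarce, at 0.65 to 0.84 TPM in fresh lung, 0.16 to 0.43 TPM in control and 0.26 to 1.23 TPM in EPZ5676 explants. Its log2 fold change in control explants was −1.27 ± 0.47 (edgeR adjusted p = 0.0558, and 0.0209 without Control 3). The rise of Lama5 and Lamb3 went with a higher sum of 10 epithelial markers, 303 to 315 TPM in fresh lung, 592 to 943 TPM in control and 884 to 1221 TPM in EPZ5676 explants. All 10 markers, among them Epcam, Krt8 and Nkx2-1, were called higher in both comparisons with fresh lung, and none was at 0 in any group. Their part in the laminin values was not tested.

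**Figure D3:**
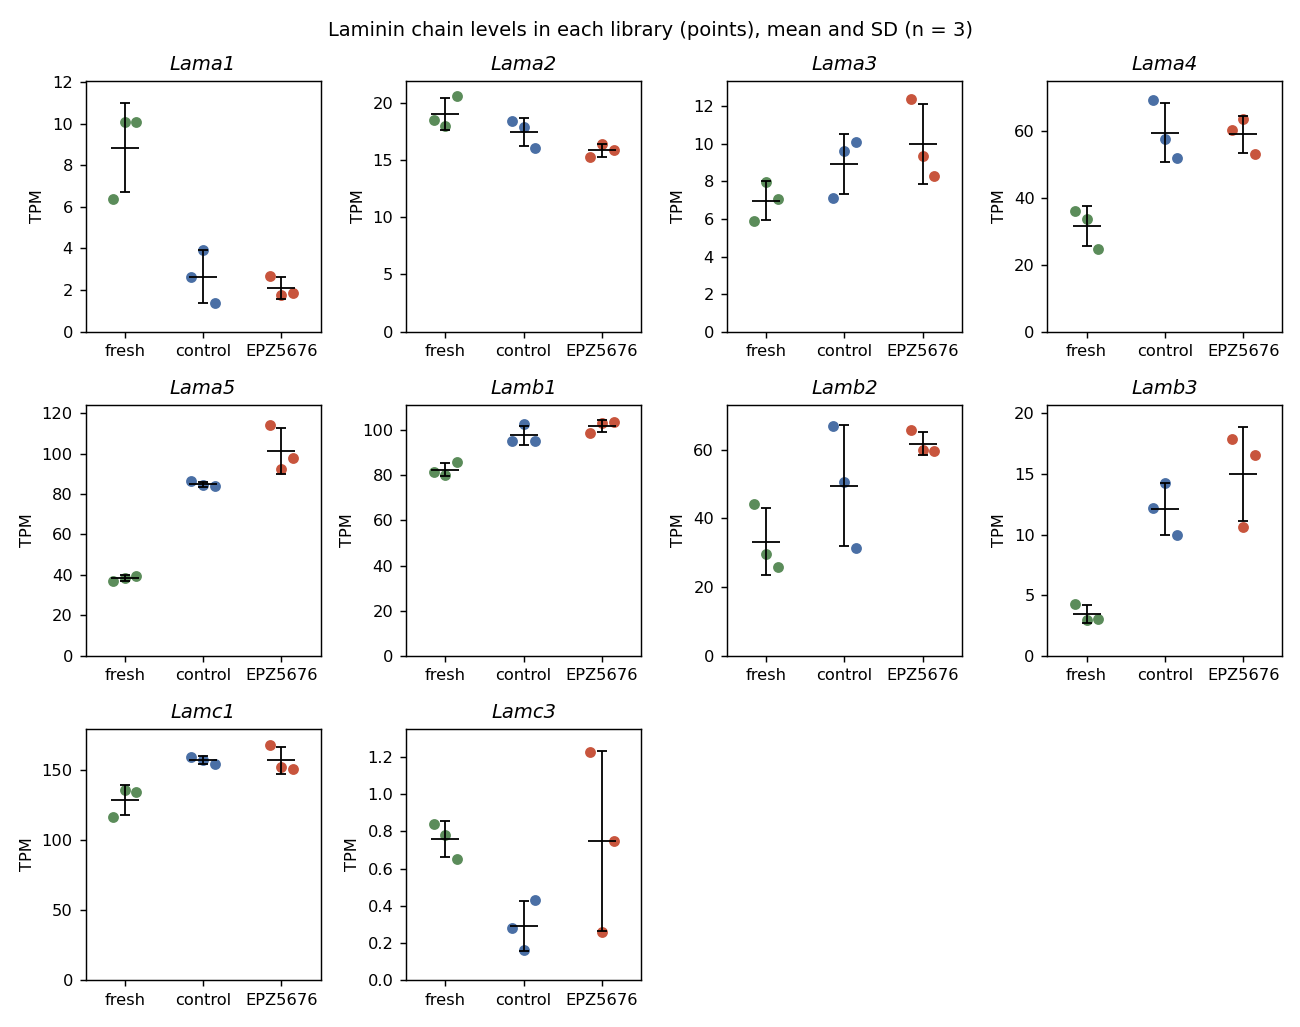
TPM (y axis, from 0) of laminin chains in each library (points), with the mean and SD of 3 libraries, for fresh lung, control and EPZ5676 explants (x axis). Lama1 drops from 6.36 to 10.1 TPM to 1.38 to 3.93 TPM, and Lama4, Lama5 and Lamb3 lie higher in every explant than in every fresh library.

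Nidogens, perlecan and agrin tie the laminin network to type IV collagen and to cells. Nid1 read 57.7, 47.6 and 45.0 TPM in fresh lung, 58.3, 52.1 and 50.5 TPM in control and 62.3, 45.9 and 50.8 TPM in EPZ5676 explants. The groups overlapped, and the log2 fold changes were 0.17 (95% interval −0.04 to 0.38) and 0.09 (−0.12 to 0.30). Nid2 averaged 46.8 ± 3.2, 61.3 ± 11.1 and 62.6 ± 18.6 TPM (SD, n = 3). It passed in control explants (1.40-fold, edgeR adjusted p = 0.0294) and EPZ5676 explants (1.42-fold, 0.0236), but not without Fresh 2, Fresh 3, Control 1 or Control 3 (0.0705 to 0.108) nor, in the other comparison, without Fresh 2, Fresh 3, EPZ5676 1 or EPZ5676 2 (highest adjusted p 0.0935).

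Hspg2, encoding perlecan, read 38.9, 46.1 and 40.8 TPM in fresh lung, 82.8, 52.3 and 65.1 TPM in control and 76.4, 51.0 and 40.3 TPM in EPZ5676 explants. Control 1 was the highest and EPZ5676 3 lay within the fresh range. The 1.61-fold rise in control explants (log2 fold change 0.69 ± 0.19, edgeR adjusted p = 0.0148) missed the threshold without Fresh 1 (0.0533) or Fresh 3 (0.0528) and with limma (0.0606 and 0.0628 at pseudocounts of 1 and 0.1). In EPZ5676 explants the log2 fold change was 0.46 ± 0.19 and did not pass (adjusted p = 0.0717). It passed without EPZ5676 3 (0.59, adjusted p = 0.0385) and in the fit to the 6 libraries of these 2 groups (0.043). Agrn, a heparan sulphate proteoglycan that binds laminin and dystroglycan, was among the higher genes at 126 ± 2.39, 134 ± 23.7 and 128 ± 9.06 TPM, and neither comparison passed (adjusted p = 0.124 and 0.419, the first 0.0158 without Control 2).

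Dystroglycan is the non-integrin laminin receptor. Dag1 read 42.0, 40.5 and 39.9 TPM in fresh lung, 87.5, 73.1 and 57.98 TPM in control and 89.6, 73.8 and 82.9 TPM in EPZ5676 explants. Every explant lay above every fresh library. The rise was 1.80-fold in control explants (log2 fold change 0.85 ± 0.09, SE, edgeR adjusted p = 6.6e-05) and 2.04-fold in EPZ5676 explants (1.03 ± 0.09, adjusted p = 1.7e-05). Of 13 enzymes that build the laminin-binding sugar of dystroglycan, 3 rose and none fell in control explants, where 21.1% of all genes were called higher. Among them were Large2, which extends that sugar (log2 fold change 0.84, adjusted p = 0.00771), and Pomt2 (0.39, 0.0161, and 0.0815 or 0.0514 without Fresh 3 or Control 1). Both calls were lost with limma on log2(TPM + 1), Large2 at 0.64 (adjusted p = 0.104) and Pomt2 at 0.24 (0.359). In EPZ5676 explants 5 rose and none fell, where 22.1% of all genes were called higher, among them Large2 (1.01, 0.00252), Pomgnt2 (0.61, 0.0456) and B4gat1 (0.58, 0.0116), and Pomgnt2 missed the threshold when any library was left out (0.0526 to 0.169). B4gat1 missed it with limma (0.0594 and 0.059 at pseudocounts of 1 and 0.1). Of 11 tested genes of the dystrophin complex, 4 rose and none fell in each comparison, beside the same 21.1% and 22.1% of all genes. They included Dmd, encoding dystrophin (0.97 and 1.00, adjusted p = 0.00104 and 7.3e-04), Sntb2 (0.62 in control explants, 0.00211) and Sspn (0.81 in EPZ5676 explants, 0.0227), the last missing the threshold without Fresh 2, Fresh 3, EPZ5676 1 or EPZ5676 3 (0.0543 to 0.0897) and with limma (0.0953 and 0.109).

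Among laminin-binding integrins Itga3 rose and Itga6 did not pass. Itga3, the partner of Itgb1 in binding Lama5 laminins, read 14.9, 14.6 and 16.2 TPM in fresh lung, 23.6, 21.4 and 21.02 TPM in control and 26.3, 29.7 and 23.6 TPM in EPZ5676 explants. Fresh lung lay below all explants. The rise was 1.51-fold (log2 fold change 0.60 ± 0.12, edgeR adjusted p = 0.00374) and 1.81-fold (0.86 ± 0.12, adjusted p = 4.0e-04). Itga6, which pairs with Itgb1 or Itgb4, read 39.1, 30.2 and 39.1 TPM in fresh lung, 44.5, 49.5 and 17.8 TPM in control and 42.1, 27.9 and 50.3 TPM in EPZ5676 explants. Control 3 was the lowest of the 9 libraries and the groups overlapped. The log2 fold change in control explants was 0.17 (95% interval −0.45 to 0.79), and it was −0.08 without Control 2. Control 3 was also the lowest library for Itga1, at 4.93 TPM against 7.03 to 10 TPM in the others. Itga7, the muscle laminin receptor, was listed at 0 to 0.64 TPM and was not tested.

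Itgb4, the hemidesmosome subunit that pairs with Itga6, was low but rose in all explants. It read 0.81, 0.74 and 0.56 TPM in fresh lung, 3.44, 2.35 and 1.93 TPM in control and 3.88, 3.36 and 4.19 TPM in EPZ5676 explants, a rise of 3.70-fold (log2 fold change 1.89 ± 0.24, edgeR adjusted p = 2.0e-04) and 5.46-fold (2.45 ± 0.23, adjusted p = 3.2e-05). Of 6 tested hemidesmosome genes and tetraspanin partners of laminin-binding integrins, 3 rose and 1 fell in control explants and 4 rose in EPZ5676 explants, where 37.7% and 40% of all genes were called in either direction. Cd9, a tetraspanin, rose most (log2 fold changes 2.74 and 3.14, adjusted p = 2.9e-06 and 1.0e-06), with 22.7 to 27.8 TPM in fresh lung and 129 to 193 TPM in explants. Plec, the plectin linker, changed by 0.86 and 0.91 (0.0186 and 0.0135), and in control explants it missed the threshold without Fresh 2 (0.058) or Fresh 3 (0.0616), and in EPZ5676 explants without EPZ5676 1 (0.0507). Both calls were also lost without a filter on low counts (0.0896 and 0.0716) and with limma on log2(TPM + 1) (0.136 and 0.0888). Krt14, a basal cell keratin, fell in control explants from 38 counts over the 3 fresh libraries to 4 over the 3 control ones (ratio 0.0899, 95% counting interval 0.0233 to 0.25, adjusted p = 0.0322). It missed the threshold without Fresh 2, Fresh 3, Control 1 or Control 3 (0.0726 to 0.103), and its log2 fold change moved from −3.34 to −4.67 without Control 2. Col17a1, the hemidesmosomal collagen, rose in EPZ5676 explants (1.39 ± 0.40, 0.0174), a call lost without Fresh 2, Fresh 3, EPZ5676 1 or EPZ5676 2 (0.0547 to 0.0838).

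Itgb1, the common beta chain, had the highest TPM of the 41 genes in all 9 libraries. It read 260, 240 and 240 TPM in fresh lung, 288, 293 and 291 TPM in control and 275, 283 and 290 TPM in EPZ5676 explants. The fresh libraries were lower than all explants, by a small margin. The log2 fold changes were 0.30 ± 0.11 (edgeR adjusted p = 0.0525, and 0.0142 without Control 1) and 0.22 ± 0.11 (0.136), and DESeq2 called the first (0.039). Itgb1 made up 82.4% ± 2.32 (SD, n = 3) of summed integrin beta TPM in fresh lung, 78.5% ± 2.12 in control and 78.4% ± 0.46 in EPZ5676 explants.

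Among integrins that bind collagen, Itga2 fell and the other 3 did not pass. Itga2, also found on platelets, read 6.06, 4.24 and 5.56 TPM in fresh lung, 2.72, 1.47 and 1.93 TPM in control and 2.08, 1.5 and 1.84 TPM in EPZ5676 explants, with no overlap. It fell 2.84-fold (log2 fold change −1.51 ± 0.25, edgeR adjusted p = 9.8e-04) and 2.90-fold (−1.54 ± 0.25, adjusted p = 7.5e-04). Its neighbour on chromosome 13, Itga1 (Itga1 at 114953096 to 115101964, Itga2 at 114833081 to 114932100, both on the minus strand, GRCm38), averaged 8.07 ± 1.65, 7.69 ± 2.56 and 8.65 ± 0.98 TPM (SD, n = 3). The log2 fold change of Itga1 in control explants was −0.03 (95% interval −0.41 to 0.35), and it was 0.15 without Control 3. Itga10 and Itga11 were at 0.43 to 2.43 TPM and 0.18 to 1.56 TPM over the 9 libraries, and neither passed in any comparison.

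Itga4, the receptor for fibronectin and Vcam1 carried by blood progenitors and mesothelium among others, fell the most. It read 12.02, 15.8 and 14 TPM in fresh lung, 2.66, 1.82 and 2.56 TPM in control and 2.95, 2.84 and 1.95 TPM in EPZ5676 explants. The lowest fresh library was far above the highest explant. By counts the gene fell 5.65-fold (log2 fold change −2.50 ± 0.19, edgeR adjusted p = 1.2e-05) and 5.39-fold (−2.43 ± 0.19, adjusted p = 1.1e-05). Its relative Itga9, which shares ligands with it, averaged 21.8 ± 0.72, 20.9 ± 7.24 and 18.3 ± 5.29 TPM (SD, n = 3), with log2 fold changes of −0.26 (95% interval −0.76 to 0.24) and −0.29 (−0.79 to 0.21). Itgb3, a partner of Itgav, averaged 3.67 ± 0.30, 2.10 ± 0.58 and 2.20 ± 1.23 TPM. Its log2 fold change of −0.76 ± 0.31 in control explants did not pass (adjusted p = 0.0743), nor did −0.73 ± 0.31 in EPZ5676 explants (0.0797, and 0.00427 without EPZ5676 1).

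The falls of Itga4 and Itga2 went with falls of red cell, platelet and vessel markers. The summed level of 8 erythroid markers was 17072 to 23945 TPM in fresh lung, 109 to 947 TPM in control and 63.6 to 959 TPM in EPZ5676 explants, with 8 of 8 called lower in both. The sum of 8 megakaryocyte and platelet markers was 38.7 to 50.5, 1.07 to 4.73 and 3.39 to 10.6 TPM. Both of these 8 that could be tested, Pf4 and Ppbp, were called lower. The endothelial and mesothelial sums are those given above for Lama4 and Lama1. Leukocyte and macrophage markers went the other way, with 12 of 12 called higher in both comparisons with fresh lung. They summed to 46.7 to 70.1 TPM in fresh lung, 679 to 804 in control and 921 to 1099 in EPZ5676 explants. None of these lists held a gene of the 41, and the part of these cells in the integrin values was not tested.

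Integrins that read the RGD motif of fibronectin, vitronectin, nephronectin and latent TGF-beta gave both large and small changes. Itga8, the mesenchymal receptor for nephronectin, read 39.3, 37.8 and 40.4 TPM in fresh lung, 34.1, 36.8 and 48.4 TPM in control and 34.8, 37.9 and 37.7 TPM in EPZ5676 explants. The groups overlapped. The log2 fold changes were 0.09 (95% interval −0.39 to 0.56, and −0.24 without Control 3) and −0.07 (−0.55 to 0.40, and 0.05 without EPZ5676 1). Itga5, the fibronectin receptor, averaged 28.0 ± 2.63, 26.3 ± 7.58 and 22.7 ± 5.44 TPM (SD, n = 3), and neither comparison passed (edgeR adjusted p = 0.544 and 0.158).

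Itgav, the alpha chain shared by several beta partners including Itgb5, Itgb6 and Itgb8, averaged 35.8 ± 5.79, 40.4 ± 4.92 and 45.6 ± 1.31 TPM (SD, n = 3). In control explants its 1.25-fold rise was close to the threshold (edgeR adjusted p = 0.0384) and was lost without Fresh 1, 2 or 3 or Control 2 or 3 (0.0729 to 0.146), and with DESeq2 (0.0502). In EPZ5676 explants it did not pass (0.0555, and 0.0496 without EPZ5676 1). Itgb6, the epithelial partner that releases active TGF-beta, rose from a very low level. It read 0.50, 0.30 and 0.40 TPM in fresh lung, 1.91, 3.83 and 3.13 TPM in control and 2.84, 3.37 and 4.05 TPM in EPZ5676 explants, a rise of 7.26-fold (log2 fold change 2.86 ± 0.48, adjusted p = 0.00108) and 7.82-fold (2.97 ± 0.47, adjusted p = 7.2e-04). Control 1 was the lowest explant and still lay above all fresh libraries.

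Itgb5, a vitronectin-binding partner, read 50.2, 31.6 and 39.3 TPM in fresh lung, 70.3, 57.6 and 56.5 TPM in control and 52.8, 61.5 and 58.8 TPM in EPZ5676 explants. It rose 1.81-fold (log2 fold change 0.85 ± 0.12, edgeR adjusted p = 4.9e-04) and 1.58-fold (0.66 ± 0.12, adjusted p = 0.00192). Itgb8, which also activates TGF-beta, averaged 6.11 ± 0.86, 4.88 ± 0.94 and 5.34 ± 0.40 TPM (SD, n = 3), with log2 fold changes of −0.25 (95% interval −0.62 to 0.12) and −0.19 (−0.56 to 0.18). Itgb8 had a higher TPM than Itgb6 in 8 libraries, and in Control 2 these were level at 3.82 TPM of Itgb8 and 3.83 TPM of Itgb6. The epithelial marker sums given above for the laminins also went with the rise of Itga3, Itgb4 and Itgb6, and their part was not tested.

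**Figure D4:**
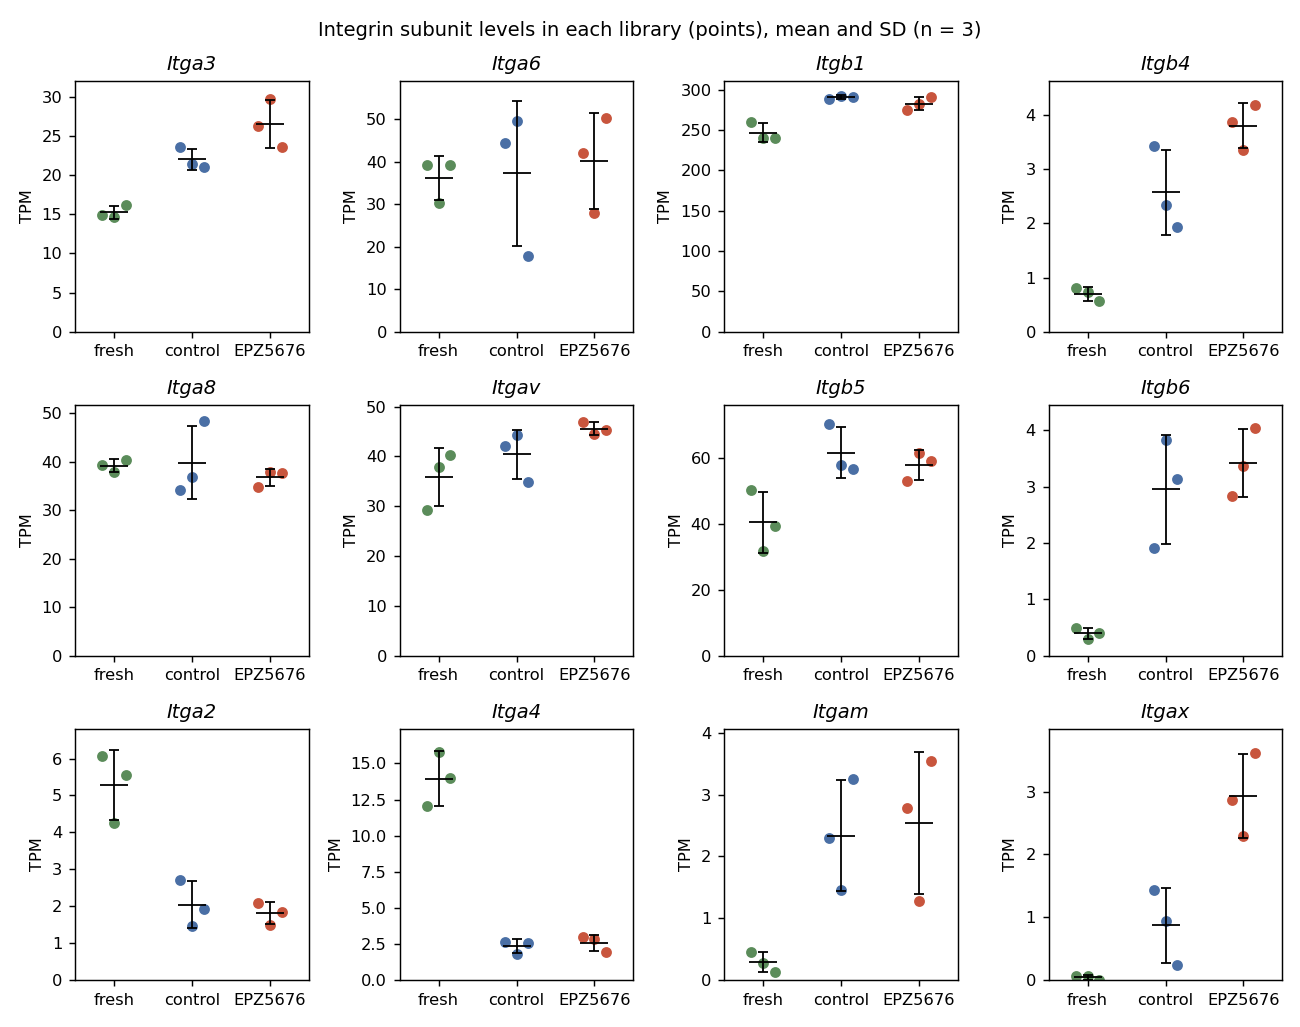
TPM (y axis, from 0) of 12 integrin genes in each library (points), with the mean and SD of 3 libraries, for fresh lung, control and EPZ5676 explants (x axis). Itga4 and Itga2 are lower in all explants, Itgb4, Itgb6, Itgam and Itgax are higher in all explants, and Itga6 and Itga8 overlap between groups.

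The largest rises of the 37 genes were those of the leukocyte integrins Itgax and Itgam. Itgam and Itgax encode the alpha chains of complement receptors of macrophages and other myeloid cells and pair with Itgb2. They lie near each other on chromosome 7, on the plus strand (Itgam at 128062640 to 128118491, Itgax at 128129547 to 128150657, GRCm38), followed by Itgad at 128154376 to 128223816. So that the starts of the 2 neighbours that rose can be set side by side, the 150 bases before the RefSeq start of Itgam and Itgax are shown (GRCm38.p6, plus strand, chr7:128062490-128062639 and chr7:128129400-128129549). Capitals mark GAGGAA on either strand, a purine-rich spelling that ETS factors of myeloid cells such as PU.1 can bind.
Itgam: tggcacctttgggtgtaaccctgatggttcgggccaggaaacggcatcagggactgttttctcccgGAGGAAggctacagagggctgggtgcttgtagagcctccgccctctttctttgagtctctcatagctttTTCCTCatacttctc
Itgax: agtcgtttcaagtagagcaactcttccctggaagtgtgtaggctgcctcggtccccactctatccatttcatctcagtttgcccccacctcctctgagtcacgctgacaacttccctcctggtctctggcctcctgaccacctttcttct
The Itgam stretch held 2 matches, 84 and 15 bases before the start, and the Itgax stretch held 0. Of 32851 stretches of this length in the RefSeq table, 14.5% held the motif, and 26 of the 41 genes were found in that table by symbol. A match describes letters and is not evidence of binding, and its absence here covers these bases and this spelling.

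Itgam read 0.46, 0.27 and 0.13 TPM in fresh lung, 2.30, 1.46 and 3.25 TPM in control and 2.79, 1.28 and 3.54 TPM in EPZ5676 explants. All explants lay above fresh lung, with a wide spread among them. The rise was 8.31-fold in control explants (log2 fold change 3.06 ± 0.54, edgeR adjusted p = 0.00148) and 8.59-fold in EPZ5676 explants (3.10 ± 0.53, adjusted p = 0.00114, and 2.44 with Xist as a covariate). Itgb2, the partner chain, read 2.07, 0.77 and 1.64 TPM in fresh lung, 6.25, 3.65 and 5.15 TPM in control and 4.29, 4.47 and 6.56 TPM in EPZ5676 explants, and rose 5.19-fold (2.38 ± 0.34, adjusted p = 4.3e-04) and 5.23-fold (2.39 ± 0.34, adjusted p = 3.5e-04). The 2 subunits rose together in both explant groups. Itgal, the lymphocyte alpha chain, stayed at 0.29 to 1.11 TPM over the 9 libraries and did not pass (adjusted p = 0.357 and 0.763).

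Itgax was nearly absent from fresh lung. It was listed at 0.06, 0.06 and 0 TPM there, at 1.43, 0.94 and 0.23 TPM in control explants and at 2.86, 2.29 and 3.62 TPM in EPZ5676 explants, and the 3 groups did not overlap. The counts behind these values were 2 over the fresh libraries, 53 over the control and 167 over the EPZ5676 ones. Scaled for depth, the ratio to fresh lung was 22.6 in control explants (95% counting interval 5.97 to 192, edgeR adjusted p = 0.0035) and 73.8 in EPZ5676 explants (20.1 to 614, adjusted p = 2.1e-04), where the intervals cover counting error only. In a fit to the 6 libraries of fresh lung and control explants alone, Itgax had too few counts to be tested. A list of 12 markers of leukocytes and macrophages, which does not include these integrins, summed to 46.7 to 70.1 TPM in fresh lung, 679 to 804 TPM in control and 921 to 1099 TPM in EPZ5676 explants. All 12 were called higher in both comparisons with fresh lung. Adgre1 (F4/80) was at 0.99 to 2.76 TPM in fresh lung and 6.75 to 12.5 TPM in explants. The part of such cells in the integrin values was not tested.

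The ligands and partners of these receptors were read from lists that hold none of the 41 genes. Of 20 tested integrin ligands and matrix adaptors, 11 rose and 1 fell in control explants, and 12 rose and 2 fell in EPZ5676 explants. Over all genes 37.7% and 40% were called in either direction. Spp1 (osteopontin), an RGD ligand of Itgav and also a macrophage product, had 3 counts over the fresh libraries and 14524 over the control ones, a depth-scaled ratio of 4140 (95% counting interval 1410 to 20100, edgeR adjusted p = 2.0e-06). Its TPM was 626 to 1016 in control and 677 to 1036 in EPZ5676 explants. Tnn (tenascin-W) went from 4 counts over the fresh libraries to 115 and 107 (ratios 24.6 and 23.6, edgeR adjusted p = 0.00708 and 0.00598). The 95% counting intervals of these ratios were 9.34 to 91.7 and 8.97 to 88.3. Tnn was at 2.16, 1.49 and 0.11 TPM in Control 1 to 3, so Control 3 lay within the fresh range of 0 to 0.12 TPM. Cdh1 (E-cadherin), a ligand of leukocyte integrins that is also in the epithelial marker list, rose by 2.05 and 2.33 on the log2 scale (adjusted p = 3.8e-05 and 1.5e-05).

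Of 20 other basement membrane genes, 11 rose and none fell in control explants, and 9 rose and 1 fell in EPZ5676 explants, against the same background. The 2 chains that join Col4a5 in mature epithelial basement membrane, Col4a3 and Col4a4, rose most from low levels (log2 fold changes 2.53 and 2.11 in control, 2.64 and 2.70 in EPZ5676 explants, highest edgeR adjusted p 0.00223). Col4a3 was at 0.30 to 0.60 TPM in fresh lung and 1.42 to 2.20 TPM in explants, and its value in control explants was 1.88 without Control 3. Tinagl1, a matricellular protein of basement membranes, rose by 1.63 and 2.10 (3.4e-04 and 5.9e-05). On the inner side of the membrane, 4 of 19 tested adaptors and kinases of integrin adhesions rose and 2 fell in control explants, and 3 rose and 2 fell in EPZ5676 explants, smaller shares than the 37.7% and 40% called over all genes. Tns1 (tensin), which binds beta chain tails, rose by 1.69 and 1.64 on the log2 scale (1.9e-05 and 1.7e-05), Pxn (paxillin) rose by 0.45 in control explants (0.0119, lost with limma at 0.0984 and 0.0993), and Ptk2 (focal adhesion kinase) fell by 0.49 in EPZ5676 explants (0.00255). Parvb (parvin beta), at −0.66 and −0.60 (0.0372 and 0.0499), missed the threshold in 4 and 5 of 6 fits that left out a library.

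EPZ5676 and control explants were then compared directly. No gene of the 37 passed in edgeR (lowest adjusted p 0.400), and DESeq2 and limma also called none of them. An unadjusted p under 0.05 was found for 3 of 37, among them Itgax and Itgb4, all of them higher with EPZ5676, where 6.94% of all genes tested had one. TPM ranges of the 2 groups did not overlap for 4 of 37 genes, among them Itgax, Lama5 and Itgav, against a background of 8.23%. The median log2 fold change was 0.03 over the 37 genes and −0.004 over all genes. Neither count stood out from the background.

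The 5 genes with the smallest p all had higher values with EPZ5676. Itgax differed by 1.79 ± 0.50 on the log2 scale (95% interval 0.69 to 2.89, edgeR adjusted p = 0.400), with 167 counts over the EPZ5676 libraries against 53 over the control ones and the lowest EPZ5676 library, at 2.29 TPM, above the highest control library, at 1.43 TPM. Itgam, its neighbour, differed by 0.05 (−0.90 to 0.99), and their shared partner Itgb2 by 0.01 (−0.63 to 0.65). The leukocyte marker sum was 679 to 804 TPM in control and 921 to 1099 TPM in EPZ5676 explants. The log2 fold change was above 0 for 11 of 12 markers, against 7460 of 15158 genes tested, and none was called. The part of these markers in the Itgax value was not tested.

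For the hemidesmosome subunit and epithelial laminin chains the differences were smaller. Itgb4 differed by 0.56 ± 0.21 (95% interval 0.10 to 1.02, edgeR adjusted p = 0.590), and Control 1, at 3.44 TPM, lay above EPZ5676 2, at 3.36 TPM. Lamb3, at 0.32 (−0.06 to 0.70), and Lama3, at 0.17 (−0.27 to 0.61), overlapped between the groups. Dag1, at 0.18 ± 0.09 (−0.01 to 0.37), and Itga3, at 0.26 ± 0.12 (−0.01 to 0.53), had adjusted p of 0.733. The epithelial marker sum was 592 to 943 TPM in control and 884 to 1221 TPM in EPZ5676 explants. The log2 fold change was above 0 for 9 of 10 markers, against 7460 of 15158 genes tested, and none was called. The part of these markers in the values above was not tested.

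For the abundant laminins and their main receptors the intervals were narrow. Between EPZ5676 and control explants Lamb1 differed by 0.01 (95% interval −0.21 to 0.23), Lamc1 by 0.02 (−0.19 to 0.23), Nid1 by −0.08 (−0.29 to 0.13), Itgb1 by −0.08 (−0.32 to 0.16) and Lama5 by 0.18 (−0.07 to 0.42). The first 2 and Itgb1 changed sign when single libraries were left out. Itgav, whose TPM ranges did not overlap (34.9 to 44.3 TPM in control, 44.4 to 47.0 TPM in EPZ5676 explants), differed by −0.03 (−0.28 to 0.21) in counts. Wider intervals held for Hspg2, at −0.23 (−0.64 to 0.18), Lama1, at −0.13 (−0.67 to 0.41), Itga6, at 0.10 (−0.52 to 0.72), and Itga8, at −0.16 (−0.64 to 0.32), so changes of moderate size in these were not detectable at this depth and number of libraries.

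None of the 6 partner lists had a gene called between EPZ5676 and control explants in edgeR. An unadjusted p under 0.05 was found for 2 of 6 hemidesmosome, 1 of 11 dystrophin complex, 1 of 20 ligand and 3 of 20 basement membrane genes, and for none of the adaptors or dystroglycan enzymes. Over all genes tested 6.94% had one, and lists this short cannot be told from that share. Npnt (nephronectin), the ligand of Itga8, was 46.6, 51.1 and 50.4 TPM in control and 70.4, 83.7 and 74.8 TPM in EPZ5676 explants, after 30.7 to 31.9 TPM in fresh lung. The 2 explant groups did not overlap, and differed by 0.60 ± 0.14 on the log2 scale (edgeR adjusted p = 0.260). Npnt passed with DESeq2 (adjusted p = 0.0311) and with edgeR without a filter on low counts (0.016). Egfl6, another RGD protein of basement membranes, was 17.8, 15.1 and 12.3 TPM in control and 28.0, 20.6 and 23.3 TPM in EPZ5676 explants (0.64 ± 0.15, adjusted p = 0.279). Cd9 (0.41, adjusted p = 0.566) and Col17a1 (0.88, 0.691) also had positive values, and Emilin1 (−0.29, 0.735), Pxdn (−0.35, 0.636), Tln2 (−0.30, 0.753), Bcar1 (−0.22, 0.868) and Sgce (−0.29, 0.713) negative ones.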

How the data were processed

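Expression of the laminin and integrin genes was read from 2 tables of 9 mouse RNA-seq libraries. Per the submitters' processing notes, RSEM, Bowtie2 and the build mm10 were used; their versions, roles and the strand setting are not given in the sources used here; without the strand, reads of genes that overlap cannot be assigned with certainty. RNA came from TRIzol extraction and was made into libraries with a Vazyme VAHTS Universal V8 kit, per the labels' protocols. The authors deposited expected counts per gene, which are estimates that divide shared reads between similar genes (12.5% to 15.3% of values were not whole), and TPM, an abundance scaled by length and depth (sums of 998977 to 999233). Both held 55286 genes, and 100% of identifier and symbol pairs were found in GENCODE M21, the source of gene positions (GRCm38, which is mm10). Promoter sequences are RefSeq's (GRCm38.p6).

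Expected counts were rounded, filtered with filterByExpr (minimum count 10, 15158 genes left) and given TMM factors. The 9 libraries went into 1 fit by group in edgeR 4.0.16 (robust quasi-likelihood test, legacy method, two-sided, R 4.3.3), with Benjamini-Hochberg adjustment over all genes tested and 0.05 as threshold. Standard errors were derived from the F statistics. TPM are given as deposited, so ratios of TPM and fold changes from counts need not match. Alternatives were DESeq2 1.42.0, limma 3.58.1 (trend) on log2(TPM + 1) and log2(TPM + 0.1), RLE scaling, no filter, at least 50 counts in 3 libraries, only the 6 libraries compared, a replicate block, each library left out, and, chosen after seeing the data, Xist as a covariate. The edgeR step was tested on simulated data. With known changes put in between EPZ5676 and control explants, it found 20% of 1.5-fold and 74% of 2-fold changes. It found 96% of 4-fold changes, and 9.38% of its calls were false. The changes were put only into genes above a set mean level, which Itgax and Lamc3 did not reach. These shares therefore do not cover such scarce genes. No 2 replicates looked like the same library, since chi-square over degrees of freedom between their counts ran from 2.68 to 31.6. Figures were drawn with matplotlib 3.10.9.

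The genes and the lists (12 of cell markers, 6 of pathway genes) were chosen with earlier results of these data known. Values in every library are given for the 14 genes with the largest change among those past the threshold in control explants with a mean of at least 1 TPM in the higher group, for the 5 with the smallest p between EPZ5676 and control explants, and for 12 anchor genes; from each pathway list up to 3 passed genes per comparison are named, or 2 with the smallest p where none passed. A few genes that the rules take are not reported here. Both comparisons with fresh lung share its libraries. Reads are not independent molecules, so counting intervals cover counting error only.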

Additional observations from a re-analysis of the deposited data

How the results depend on the processing

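In both comparisons with fresh lung the calls for Lama1, Lama4, Lama5, Lamb3, Dag1, Itga2, Itga3, Itga4, Itgam, Itgb2, Itgb4, Itgb5 and Itgb6 held under every setting run. Itgax had too few counts under 2 settings. Of the other members and the partner genes named, the following calls changed by setting, besides the changes on leaving out a library that stand beside each value; the cause was not tested. In control explants limma at both pseudocounts lost the calls for Lamb1, Lamb2, Nid2, Hspg2, Itgav, Large2, Pomt2, Pxn and Plec and gained one for Itgb1. At one of the pseudocounts it also lost those for Tnn and Parvb. In EPZ5676 explants limma at both lost Nid2, Plec, B4gat1 and Sspn, and at one of them Pomgnt2. Xist as a covariate lost Lamb1, Nid2 and Parvb in both comparisons, Itgav in control and Pomgnt2 in EPZ5676 explants, and gained Lamc3 in control explants. No filter lost Plec in both and Pomgnt2 in EPZ5676 explants, and gained Itgb1 in control and Lama3 in EPZ5676 explants. DESeq2 lost Itgav and gained Itgb1 in control explants and lost Pomgnt2 in EPZ5676 explants, and RLE scaling lost Itgav in control and Pomgnt2 in EPZ5676 explants. The fit to the 6 libraries compared lost Itgav and gained Itgb3 and Lamc3 in control explants, and lost Pomgnt2 and gained Itgav, Lama3 and Hspg2 in EPZ5676 explants. The replicate block lost Parvb in both and Pomgnt2 in EPZ5676 explants, and gained Itga5, Itgav and Itgb3 in EPZ5676 explants. The number of members called lower was 3 in both comparisons with fresh lung. It was 5 with the replicate block in each of them (Itgb3 and Lamc3 were added in control explants) and 5 in the fit to the 6 libraries of fresh lung and control explants. With 1 library left out, the number called higher was 14 to 19 in control and 14 to 17 in EPZ5676 explants, the number called lower was 3 to 4 in both, and 0 members were called between EPZ5676 and control explants. Same-numbered libraries deviated together in no consistent way. Their correlations over genes were 0.0298, −0.0111 and 0.0223 for control explants with fresh lung. For EPZ5676 explants with fresh lung they were −0.102, −0.088 and 0.0196, and between the explant groups 0.457, 0.0789 and −0.0468. Not every library correlated best with its own number, but EPZ5676 1 did, at −0.247 and −0.221 with Control 2 and 3. The labels do not say whether a number marks a shared litter or day, and these few correlations cannot decide it.

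Small values changed sign. In control explants against fresh lung, Itga1 was 0.0524 and Itga8 −0.0481 with Xist as a covariate, and Itga6 was −0.0731 and −0.0791 with limma at pseudocounts of 1 and 0.1. With 1 library left out, Itga1 ranged from −0.179 to 0.15, Itga6 from −0.0789 to 0.447 and Itga8 from −0.236 to 0.254. In EPZ5676 explants against fresh lung, Itga8 ranged from −0.155 to 0.0472 and Lama2 from −0.123 to 0.000869. Between EPZ5676 and control explants, Lamb1 was −0.0107 with Xist as a covariate, Lamc1 was −0.00185 and −0.00187 with limma, and the ranges were −0.175 to 0.338 for Itga6, −0.326 to 0.164 for Itga8, −0.17 to 0.0188 for Itgb1, −0.323 to 0.0214 for Lama1, −0.0631 to 0.105 for Lamb1 and −0.0539 to 0.0554 for Lamc1. Over all genes, edgeR called 0 between EPZ5676 and control explants, DESeq2 called 104, edgeR without a filter 76 and edgeR without EPZ5676 2 called 26; none was a member. Limma's pseudocounts shrank the changes of low genes such as Itgax, Itgam, Itgb4 and Itgb6, with no change of call.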
